A study of Homo sapiens with 3 samples.

Results

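The NRF2 antioxidant genes examined here were NFE2L2, which encodes NRF2 itself, and 7 genes that NRF2 is known to regulate, HMOX1, NQO1, SRXN1, TXNRD1, GCLC, GCLM and SLC7A11. They were chosen by name as genes of 1 pathway, with earlier results of these data known. They were examined through the peak summits of a TFE3 fusion protein that fell in hg19 windows. Each window held a gene with about 10 kb of flank on either side. Other genes reach into these stretches, among them HNRNPA3 for NFE2L2, MCM5 for HMOX1 and NFAT5 for NQO1. A summit in a window was thus not tied to the named gene. The 8 windows covered 592 kb. They held 30 of the 44983 summits of the library labelled replicate 8 and 17 of the 28084 summits of the library labelled replicate 9. Chromatin was immunoprecipitated on an anti-HA matrix and sequenced (ChIP-seq). The cells were HK-2, a human cell line of the kidney's proximal tubule, which carried a doxycycline-inducible HA-PSF-TFE3 construct and were given 0.2 µg/ml doxycycline for 24 h. PSF is another name of SFPQ, and TFE3 is a transcription factor, which the construct joins in 1 HA-tagged protein. Both ChIP libraries and the input DNA library came from induced cells, and each ChIP library came from a separate clone according to the study's methods. The design text of the series names PRCC-TFE3 in place of PSF-TFE3, and the labels were followed. No uninduced library was part of the samples used here, so that sites bound without the fusion cannot be told apart from sites bound by it. The values were summit lists with no reads, which give neither sequencing depth nor gene expression, and the identity of the cells could not be checked against marker genes.

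NRF2 is a transcription factor that drives the response to oxidants and electrophiles. In unstressed cells KEAP1 holds it in the cytoplasm and directs its degradation, and once released it pairs with a small MAF protein and binds antioxidant response elements, whose core reads TGACNNNGC. TFE3 belongs to another family, the MiT/TFE factors, which bind the E-box CACGTG and are best known for lysosomal and autophagy genes. The proximal tubule takes up filtered drugs and toxins and relies on glutathione to detoxify them.

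Promoter sequence was examined for the letters that each family of factors is known to bind. The reference promoters were those of RefSeq on GRCh38.p14, with 250 bases before and 50 after the start. They were matched by gene symbol, and 6 of the 8 genes had an entry, NFE2L2 and TXNRD1 with 2 each. HMOX1 and SLC7A11 had none. Because summits are on hg19 and starts are known to 1 kb, it was not measured whether a summit falls within these bases. The promoters that hold a response element core, and those of NQO1 and GCLC, whose start summits recurred, are shown up to the last base before the start, 5′ to 3′ along the gene. Capitals mark TGACNNNGC on either strand, where it lies wholly before the start.
GCLM, chr1:93909431-93909680 (minus strand): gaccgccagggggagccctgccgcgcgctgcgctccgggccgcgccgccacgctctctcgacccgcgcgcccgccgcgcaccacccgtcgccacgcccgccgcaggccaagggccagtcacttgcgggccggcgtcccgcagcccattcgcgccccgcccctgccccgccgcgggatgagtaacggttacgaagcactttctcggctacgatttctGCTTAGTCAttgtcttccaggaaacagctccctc
TXNRD1 at the beginning of the gene, chr12:104215529-104215778 (plus strand): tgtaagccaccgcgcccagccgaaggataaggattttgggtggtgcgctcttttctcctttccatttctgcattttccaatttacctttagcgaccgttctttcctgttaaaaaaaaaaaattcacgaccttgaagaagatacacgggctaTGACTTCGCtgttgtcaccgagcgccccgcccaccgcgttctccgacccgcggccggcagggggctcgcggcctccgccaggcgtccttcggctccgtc
TXNRD1 at the further start, chr12:104286782-104287031 (plus strand): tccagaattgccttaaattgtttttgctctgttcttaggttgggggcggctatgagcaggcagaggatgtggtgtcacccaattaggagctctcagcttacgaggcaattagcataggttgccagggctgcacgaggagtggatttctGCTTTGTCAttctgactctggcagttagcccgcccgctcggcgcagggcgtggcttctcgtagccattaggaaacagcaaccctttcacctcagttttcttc
NQO1, chr16:69726561-69726810 (minus strand): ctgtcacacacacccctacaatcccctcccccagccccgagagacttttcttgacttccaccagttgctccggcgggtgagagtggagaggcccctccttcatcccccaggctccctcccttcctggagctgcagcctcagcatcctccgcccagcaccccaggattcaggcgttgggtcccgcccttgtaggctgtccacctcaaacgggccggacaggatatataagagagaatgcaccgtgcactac
GCLC, chr6:53545102-53545351 (minus strand): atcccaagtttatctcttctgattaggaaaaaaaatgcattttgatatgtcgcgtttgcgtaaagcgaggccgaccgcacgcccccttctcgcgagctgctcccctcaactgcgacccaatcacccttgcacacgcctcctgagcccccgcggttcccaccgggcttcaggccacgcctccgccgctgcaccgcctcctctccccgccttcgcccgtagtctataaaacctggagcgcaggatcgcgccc

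The core TGACNNNGC was found in GCLM and TXNRD1, that is in 2 of 6 genes and 3 of their 8 promoters, beside 13.3% of all 35116 promoters in the table. In GCLM the match was on the reverse strand at bases -34 to -26, where -1 is the last base before the start and 1 the first base after it. At the further start of TXNRD1, next to which a recurring pair of summits lay, it was on the reverse strand at -102 to -94 and was part of the longer form, with TCA and any 3 bases before TGACNNNGC, which 0.222% of all promoters hold. At the beginning of TXNRD1 there was a match at -99 to -91, and another ran across the start from -8 to 1. The E-box CACGTG, which 7.26% of all promoters hold, its longer form TCACGTG (3.71%) and the AP-1 sequence TGANTCA (7.71%) were found in none of the 8 promoters on either strand. The loose E-box CANNTG, of which CACGTG is 1 form, was in 6 of the 8 and in 68.7% of all promoters. No match says only that these letters are not in this window.

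Every one of the 8 windows held at least 1 summit in replicate 8, and 6 of the 8 held at least 1 in replicate 9. In those 6 windows, NFE2L2, HMOX1, NQO1, TXNRD1, GCLC and SLC7A11, at least 1 summit recurred, which here means that a summit of the other library lay within 200 bp. GCLM and SRXN1 held summits in replicate 8 alone. The mean number of summits over the windows was 23.5 ± 9.19 (SD, n = 2). To set these counts against the rest of the genome, each chromosome was divided into tiles of the length of each window. At the shortest length, 27 kb, 22.4% of tiles held a replicate 8 summit, 16.5% a replicate 9 summit and 14.2% a recurring one. At the longest, 155 kb, these were 57%, 49.3% and 45.1%. Summed over the 8 lengths the shares with a recurring summit came to 2.17 windows, beside the 6 observed. The windows held 5.07 summits per 100 kb in replicate 8 and 2.87 in replicate 9, and the whole lists held 1.47 and 0.919. Tiles include sequence without genes, whereas every window was laid on a gene, so that the difference cannot be read as particular to antioxidant genes. The genes were also chosen with earlier results of these data known.

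**Figure D1:**
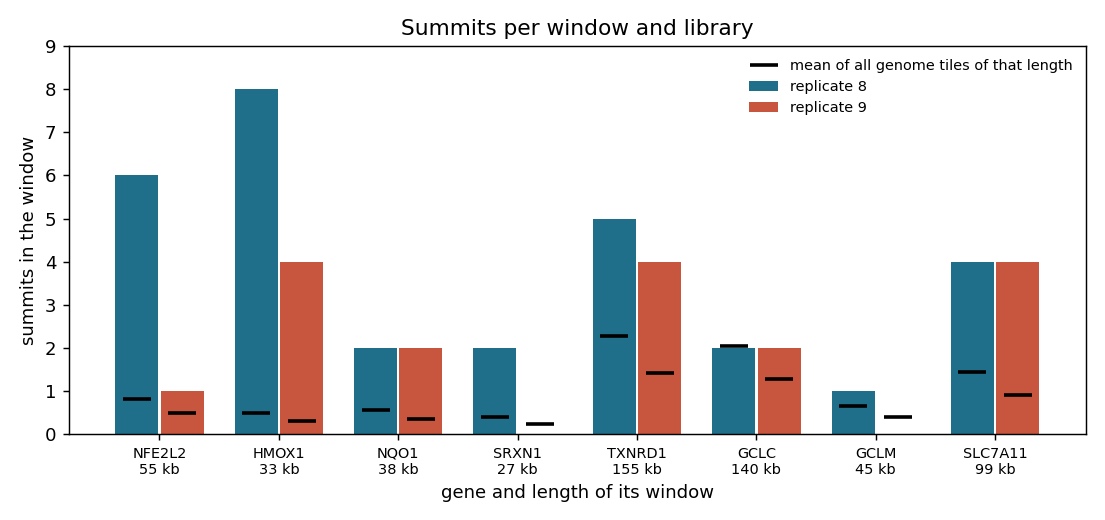
Summits in each gene's window (vertical axis, number) in replicate 8 (blue bars) and replicate 9 (red bars), with the window length under each name; the black marks give the mean over all genome tiles of that length. HMOX1 held 8 and 4 summits in 33 kb, and GCLC in 140 kb held 2 in each library.

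The recurring shares of the window summits had intervals that included those of the whole lists, and their median strength was that of mid-list summits. In replicate 8, 14 of 30 summits recurred (46.7%, 95% Wilson interval 30.2 to 63.9%), beside 47.9% of the whole list. In replicate 9, 14 of 17 recurred (82.4%, 95% Wilson interval 59.0 to 93.8%), beside 76.6% of the whole list. These intervals cover counting error only, and summits of the same gene are not independent. Strength was given by the score, the −log10 q-value of the authors' peak caller, and by its percentile within its own list, because scores were not normalised between libraries. The median percentile was 51.5 in replicate 8 and 50.6 in replicate 9. A percentile of at least 75 was reached by 9 of 30 summits in replicate 8 (30.0%, beside 25.1% of the list) and by 3 of 17 in replicate 9 (17.6%, beside 25% of the list). The 16 summits of replicate 8 that did not recur had percentiles from 2.62 to 52.7, apart from 1 in TXNRD1 at 87.8.

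Gene starts could be placed only to about 1 kb, since the annotation used was on GRCh38 and no coordinate was converted. The start was first set 10 kb inside the end of the window at which transcription begins. A second estimate lay the RefSeq gene length away from a point 10 kb inside the other end of the window. It differed from the first by 0.112 to 0.84 kb in 7 genes. In GCLC it differed by 72.2 kb, because that window spans a longer annotation, of 120 kb without its flanks, whereas the RefSeq gene is 47.8 kb long. Distances given below are from the second estimate, in the direction of transcription. With the first estimate, 6 of 8 genes had a summit within 2 kb of the start in replicate 8 and 3 of 8 in replicate 9. With the second estimate these were 7 and 4, and with a further start that RefSeq lists for TXNRD1 they were 8 and 5. With the first estimate and a minimum score of 5 they were 4 and 2. Of all 4 kb tiles of the genome, 4.88% held a summit of replicate 8 and 3.28% one of replicate 9. Gene starts in general were not available on hg19 here, so whether other genes carry start summits as often was not measured.

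**Figure D2:**
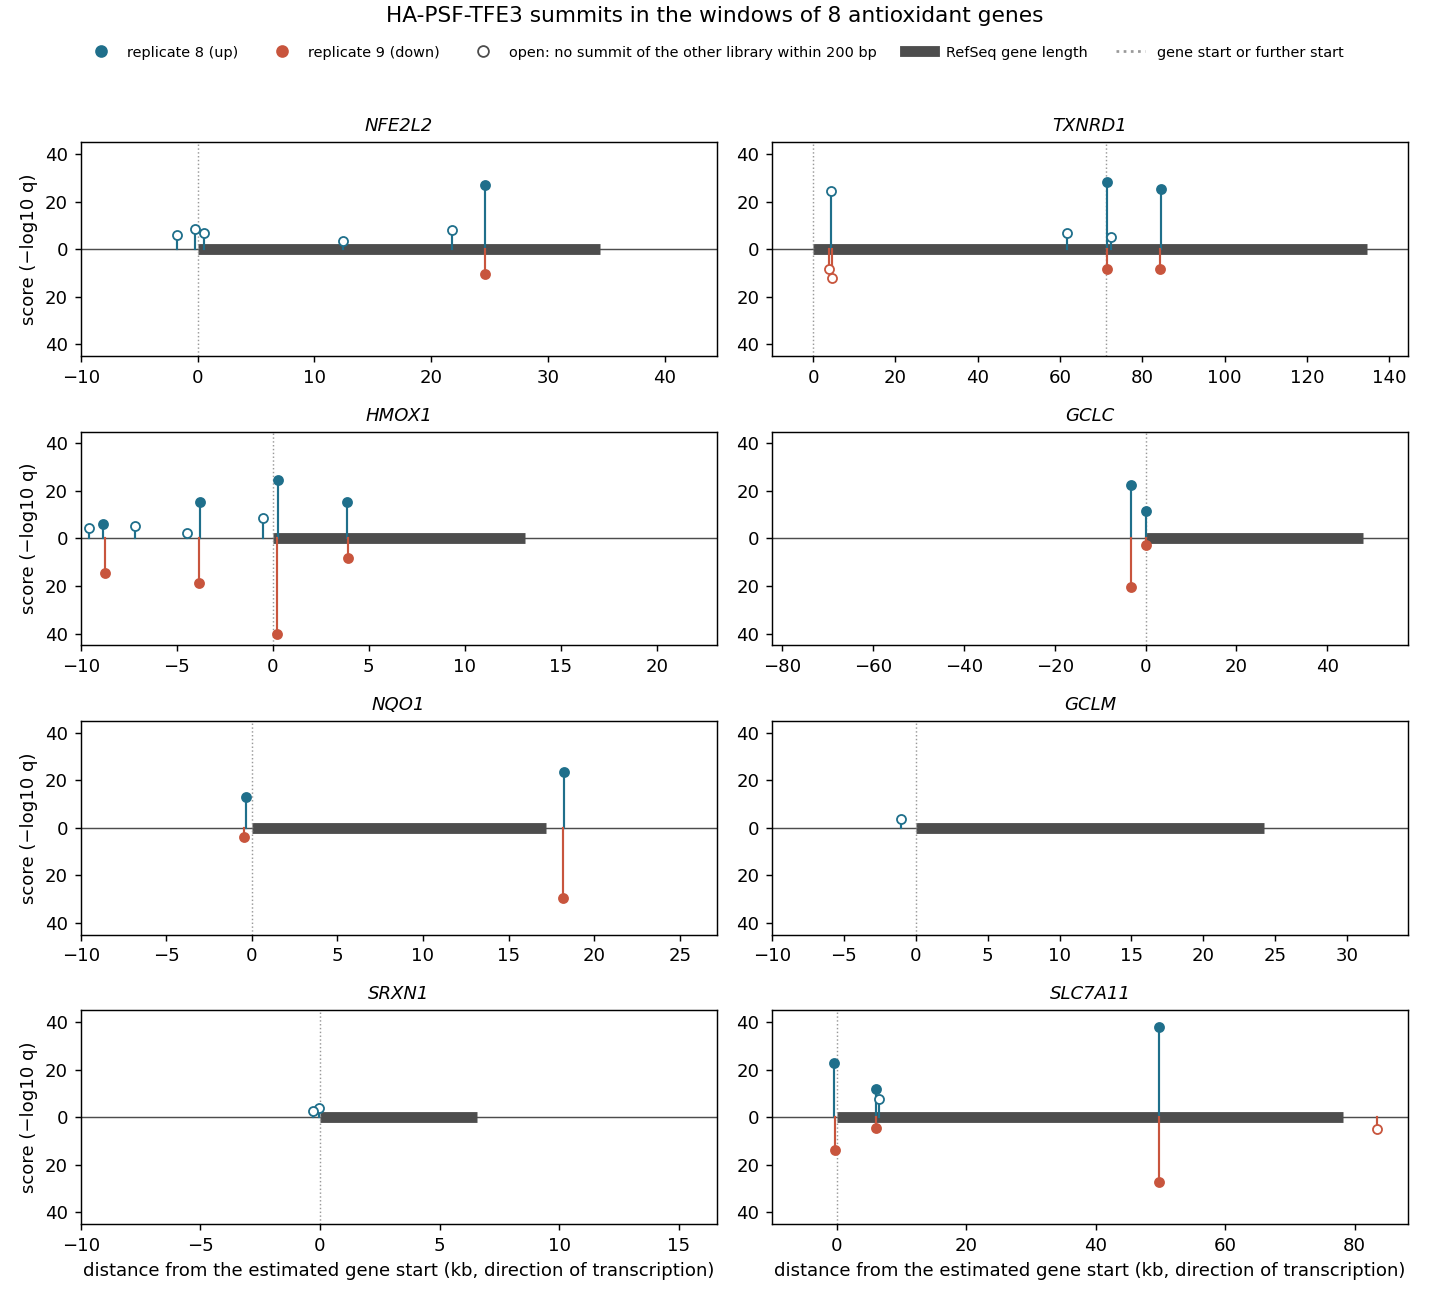
Summits of replicate 8 (blue, upward) and replicate 9 (red, downward) by distance from the estimated gene start (horizontal axis, kb, in the direction of transcription), with the score (−log10 q) as height; open circles have no summit of the other library within 200 bp, and dark bars mark the RefSeq gene length. Starts are known to about 1 kb. HMOX1 has its highest score at the start in both libraries, while NFE2L2, NQO1, GCLC and SLC7A11 have theirs away from it. GCLM and SRXN1 have summits in replicate 8 alone, all near the start. TXNRD1 has its highest score next to its further start in replicate 8 but not in replicate 9.

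NFE2L2 encodes NRF2, the factor that is known to regulate the other 7 genes. Its window lay on chromosome 2 from 178085000 to 178140000 and held 6 summits in replicate 8 and 1 in replicate 9. The recurring site was at position 178104788 in replicate 8 and 178104864 in replicate 9, 24.6 kb downstream of the start and inside the gene. Its score was 27.0 in replicate 8 and 10.5 in replicate 9, which are percentiles of 90.3 and 50.6. Thus 1 intragenic site was strong in replicate 8 and of middle strength in replicate 9. Other replicate 8 summits surrounded the start, at 178128878, 178129641 and 178131187. Their scores were 6.64, 8.33 and 5.83, with percentiles of 40.7, 50.4 and 34.9. No replicate 9 summit lay within 15.1 kb of them. In the replicate 8 list, summits of the same score deciles recurred in 36.5%, 49.9% and 27.4% of cases, so that summits of this strength were commonly absent from replicate 9. The remaining replicate 8 summits of NFE2L2, at 178107644 and 178116983, had percentiles of 49.8 and 11.3. Of all 55 kb tiles, 2.33% held 6 or more replicate 8 summits and 27.4% held at least 1 of replicate 9, while 35.2% held at least 1 of replicate 8 and 24.2% a recurring one.

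HMOX1 encodes haem oxygenase 1, which degrades haem to biliverdin, iron and carbon monoxide. It is known to be controlled by enhancers upstream of its start that carry antioxidant response elements. Its window, on chromosome 22 from 35767000 to 35800000, was the most densely bound of the 8, with 8 summits in replicate 8 and 4 in replicate 9. Of all 33 kb tiles, 0.201% held 8 or more summits of replicate 8 and 1.07% held 4 or more of replicate 9. At least 1 summit was held by 25.6% of these tiles in replicate 8 and 19.2% in replicate 9, and a recurring one by 16.6%. All 4 replicate 9 summits recurred in replicate 8.

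The strongest HMOX1 site lay at the start, 0.281 kb downstream of its estimate, at 35777169 in replicate 8 and 35777117 in replicate 9. Its score was 24.4 in replicate 8 and 40.3 in replicate 9, at percentiles of 88.0 and 90.5. That replicate 9 score was the highest of its 17 summits in these windows. Upstream, a site 3.78 kb before the start, at 35773112 and 35773047, had scores of 15.5 and 18.5, at percentiles of 74.6 and 70.2. A second upstream site, 8.85 kb before the start, at 35768042 and 35768151, had scores of 6.24 and 14.7, at percentiles of 38.5 and 62.6. The start and the outer upstream site were the only recurring summits of the 8 genes with a higher percentile in replicate 9 than in replicate 8. The last recurring site lay inside the gene, 3.84 kb downstream of the start, at 35780729 and 35780800, with scores of 15.4 and 8.35. The 4 HMOX1 summits found in replicate 8 alone, at 35767335, 35769703, 35772443 and 35776366, lay 0.604 to 1.55 kb from the nearest replicate 9 summit and had percentiles from 2.62 to 52.7. In the score deciles of these summits, in that order, 19.2%, 27.4%, 10.1% and 49.9% of the whole replicate 8 list recurred. The summits did not stop at the edge of the window. In the 10 kb beyond it there were 4 more in each library, all on the upstream side. Of these, the replicate 8 summits at 35759092 and 35757857, with scores of 22.4 and 3.89, had replicate 9 partners. The same distance beyond the NFE2L2 window held 2 summits in each library, among them a recurring pair at 178076676 and 178076679. That pair scored 14.2 in replicate 8 and 2.57 in replicate 9. Beyond the SLC7A11 window there were 2 in replicate 8. Without HMOX1 the other 7 windows held 22 summits in replicate 8 and 13 in replicate 9, or 3.94 and 2.33 per 100 kb.

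NQO1 encodes a quinone reductase that uses NAD(P)H to reduce quinones, and its transcript is often used as a readout of NRF2. Its window, on chromosome 16 from 69733000 to 69771000, held 2 summits in each library, and both recurred. Of all 38 kb tiles, 28.1% held a replicate 8 summit, 21.2% a replicate 9 summit and 18.5% a recurring one, and 13.3% and 7.84% held 2 or more in replicates 8 and 9. The stronger lay at 69741923 in replicate 8 and 69741990 in replicate 9, about 1 kb past the 3′ end of the gene, in the flank on the side of the neighbouring gene NFAT5. Its scores were 23.4 and 29.7, at percentiles of 86.7 and 83.7. The other lay at the start, at 69760506 and 69760620, 0.346 kb upstream of its estimate. Its score was 13.1 in replicate 8 but 3.81 in replicate 9, at percentiles of 68.7 and 9.20. The site beyond the gene was therefore alike in rank in both libraries, while the start site was weak in replicate 9.

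SRXN1 encodes sulfiredoxin, which repairs over-oxidised peroxiredoxins. In its window, on chromosome 20 from 617000 to 644000, replicate 8 had 2 summits at the start, at 633608 and 633854, and replicate 9 had none. Their scores of 4.02 and 2.61 placed them at percentiles of 17.0 and 3.24. The nearest replicate 9 summit was 96.8 kb away. Of all 27 kb tiles, 9.32% held 2 or more replicate 8 summits. Replicate 8 summits in the deciles of these scores recurred in 13.5% and 10.1% of cases.

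TXNRD1 encodes thioredoxin reductase 1, which keeps thioredoxin reduced with NADPH. Its window, on chromosome 12 from 104599000 to 104754000, held 5 summits in replicate 8 and 4 in replicate 9. Of all 155 kb tiles, 18.1% held 5 or more of replicate 8 and 13.4% held 4 or more of replicate 9. RefSeq lists a start at the beginning of the gene and a further start 71.3 kb into it. The replicate 8 summit at 104680927 and the replicate 9 summit at 104680937, which lay 10 bp apart, were 71.5 kb from the estimated beginning of the gene, next to the further start. This pair scored 28.0 and 8.17, at percentiles of 91.3 and 39.6. A pair deeper in the gene, at 104693920 and 104693842, scored 25.2 and 8.37, at percentiles of 88.7 and 40.8. Both recurring TXNRD1 sites were thus in the upper part of the replicate 8 list and below the middle of the replicate 9 list. Near the beginning of the gene, replicate 8 had a summit at 104613787 with a score of 24.3, and replicate 9 had summits at 104613254 and 104614019 with scores of 8.20 and 12.2. The nearer of these was 232 bp away, just beyond the 200 bp limit, so that this summit counted as not recurring although both libraries had peaks there. The remaining replicate 8 summits, at 104671172 and 104681805, had percentiles of 41.8 and 28.8.

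GCLC and GCLM encode the catalytic and the modifier subunit of glutamate-cysteine ligase, the rate-limiting enzyme of glutathione synthesis. The GCLC window, on chromosome 6 from 53352000 to 53492000, held 2 summits in each library, all recurring. The pair at 53412907 and 53413041, 3.15 kb upstream of the RefSeq start estimate, had scores of 22.3 and 20.6, at percentiles of 85.4 and 73.6. The pair at the start, at 53409665 and 53409561, had scores of 11.7 and 2.59, at percentiles of 64.7 and 2.88. As in NQO1, the start site was the weaker of the pair of sites and lay near the bottom of the list in replicate 9. Although the GCLC window was 140 kb long, 38.5% of tiles of that length held 2 or more summits of replicate 8, 28.1% of them 2 or more of replicate 9, and 42.6% held a recurring one. At least 1 summit was held by 54.9% of these tiles in replicate 8 and 46.7% in replicate 9. The GCLM window, on chromosome 1 from 94340000 to 94385000, held a single replicate 8 summit at 94375250, 1.02 kb upstream of the start. It had a score of 3.72 and a percentile of 13.6, and the nearest replicate 9 summit was 63.1 kb away. Replicate 8 summits in the decile of this score recurred in 13.5% of cases. Of all 45 kb tiles, 31.3% held at least 1 replicate 8 summit, 23.9% at least 1 of replicate 9 and 20.9% a recurring one. The counts of both windows are thus frequent among tiles of their lengths, and as the windows differ in length the 2 genes were not compared with each other.

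SLC7A11 encodes xCT, the cystine/glutamate exchanger that supplies cysteine for glutathione. Its window, on chromosome 4 from 139075000 to 139174000, held 4 summits in each library, of which 3 recurred. Of all 99 kb tiles, 14.4% and 7.15% held 4 or more in replicates 8 and 9, while 47.7% and 39.2% held at least 1 and 35.2% a recurring one. The highest score of all member summits in replicate 8, 37.8 (rank 1533 of its list), was at 139113493, 49.8 kb downstream of the start and inside the gene. Its replicate 9 partner at 139113450, 43 bp away, scored 27.2, at a percentile of 81.4 beside 96.6 in replicate 8. The start site, at 139163592 and 139163574, scored 22.8 and 13.8, at percentiles of 86.1 and 60.6. A further pair 6.06 kb into the gene, at 139157191 and 139157174, scored 12.0 and 4.65. Replicate 9 alone had a summit at 139079817, beyond the 3′ end of the gene, which scored 5.09 and lay 33.7 kb from the nearest summit of replicate 8. Replicate 8 alone had one at 139156783, at a percentile of 47.6, which was 391 bp from a replicate 9 summit.

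The 14 recurring pairs lay 10 to 134 bp apart, with a median of 69 bp. In 12 of them the percentile was higher in replicate 8, beside 74.4% of the 21518 pairs of the whole lists. A percentile depends on the length of its list, 44983 summits in replicate 8 and 28084 in replicate 9, so that a difference in percentile is not by itself a difference in binding and is read here only beside that of all pairs. The median difference, replicate 9 minus replicate 8, was -29.6 percentile points in the windows and -10.5 over all pairs. Of the pairs, 5 lay within 2 kb of a start or of the further start of TXNRD1, and these ranged from 2.88 to 90.5 in replicate 9 percentile. At the start sites of GCLC and NQO1 the difference was -61.8 and -59.5 points, and it was as low or lower in 1.73% and 2.22% of all pairs. At the outer upstream site of HMOX1 it was 24.1 points, and as high or higher in 3.21% of all pairs. These were the lowest and the highest of the 14 differences, picked after ranking, so that small shares of all pairs are unremarkable for them. Pairs at a start ranged from -61.8 to 2.58 points, the latter at HMOX1. Pairs elsewhere ranged from -50.2, in SLC7A11, to 24.1, so that large drops were not confined to starts. Each such difference compares 1 library with 1 other and has no replicate check.

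**Figure D3:**
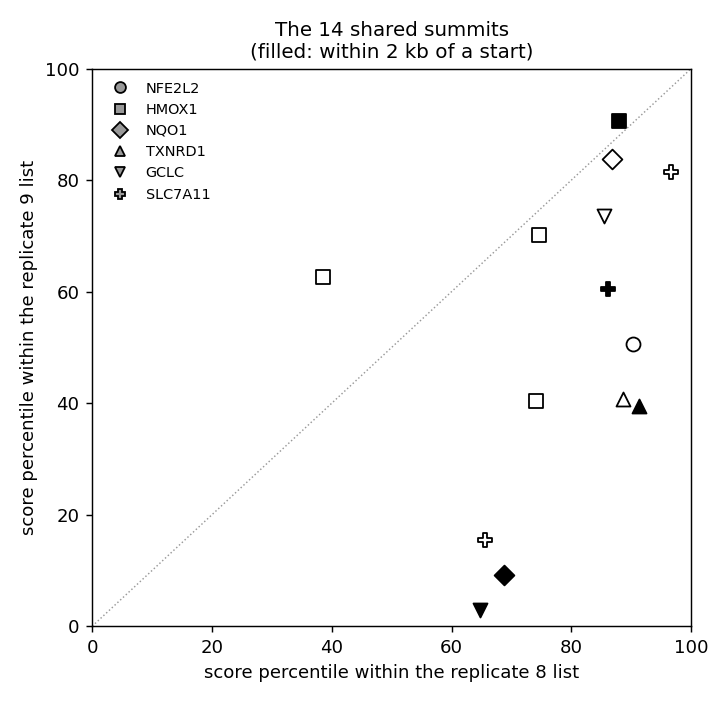
Score percentile of the 14 recurring pairs within the replicate 8 list (horizontal axis) and the replicate 9 list (vertical axis), by gene; filled symbols lie within 2 kb of an estimated start or the further start of TXNRD1, and the dotted line marks equal percentiles. Of the pairs, 12 fall under the line, and both pairs above it belong to HMOX1.

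Of 26 other genes of the pathway, 19 had promoter entries, 30 in all, and their summits could not be counted because no hg19 positions were at hand. TGACNNNGC was held by 7 of the 19 genes and 7 of the 30 promoters, beside 13.3% of all promoters. Among them were KEAP1, the inhibitor of NRF2, whose second promoter in the table held it at -54 to -46 and again, in the longer form, at -31 to -17, and GPX2, a glutathione peroxidase. CACGTG was held by 3 of the 30 promoters, beside 7.26% of all promoters. They were those of MAFF and MAFG, which encode small MAF partners of NRF2, at -196 to -191 and -81 to -76 in the 2 MAFF promoters and at -16 to -11 in MAFG. TGANTCA was held by 4 of the 30 promoters, of BACH1, ME1, OSGIN1 and SLC3A2, beside 7.71% of all promoters. In ME1, the malic enzyme that makes NADPH, and in SLC3A2, the heavy chain that pairs with xCT, it overlapped TGACNNNGC as TGACTCAGC.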

How the data were processed

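Anti-HA ChIP-seq libraries of HK-2 cells expressing HA-PSF-TFE3, replicates 8 and 9, were analysed. The input DNA library was not analysed here. The authors called peaks with MACS2 (named in the submitters' processing notes, with hg19) in each ChIP library against the input, without pooling, and deposited 1 summit per peak with a −log10 q-value. A q-value of 0.05, the cutoff stated, is a score of 1.30. The lowest scores in the lists were 1.37 in replicate 8 and 1.33 in replicate 9. The study's descriptions name both bwa with hg19 and bowtie2 with hg38, and differ on whether the cutoff was on p or on q. In the lists, 364 and 262 summits lay past the ends of hg38 chromosomes, so hg19 was taken as their build. The study also states a filter on fold enrichment, which cannot be checked from the lists. The lists hold no read depth, and an absent summit may have missed either criterion.

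Members, gene lists and alternatives were chosen with earlier results of these data known. Summits were assigned by their position in the windows. A summit recurred if a summit of the other library lay within 200 bp, and mutually nearest summits formed pairs. Ranks and percentiles were taken within each list. Tiles ran along each chromosome up to its last summit. All 8 genes were named, with every recurring summit and other summits from percentile 75 upwards, and of pathway genes those whose promoters held CACGTG or TGACNNNGC. Positions of other summits, and the genes BACH1 and OSGIN1, were added after their values were seen. With 1 group, no test between conditions was possible, and values are descriptions. Functions were tested on simulated lists. Strand was taken from GENCODE v44. Scripts ran in Python 3.11.15 with pandas 2.3.3, numpy 2.4.6, matplotlib 3.10.9 and scipy 1.17.1.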

Additional observations from a re-analysis of the deposited data

How the results depend on the processing

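The 6 genes with a recurring summit stayed 6 with a minimum score of 5, without flanks, with windows widened by a further 10 kb, with equal numbers of summits and within 500 bp. They were 5 with a minimum score of 10 and 2 within 50 bp. The tile shares given above hold for 200 bp, the full lists and the unchanged windows. Whether the counts at other settings differ from the genome therefore cannot be judged. Within 50 bp the shares of recurring summits were 13.3% in replicate 8 and 23.5% in replicate 9, and with equal numbers that of replicate 8 was 66.7%. The whole-list shares given above hold for 200 bp and the full lists, so these shares cannot be set beside them. A minimum score of 10 lowered the mean number of summits to 11.5, and each library on its own gave 17 to 30. The mean of the 2 median percentiles, 51.1, was 62.7 and 78.3 with minimum scores of 5 and 10, 53.2 without flanks, 44.5 with wider windows and 62.3 with equal numbers, and each library alone gave 50.6 to 51.5. A minimum score or an equal number removes weak summits by construction. A shorter distance can likewise only lower the share that recurs, and leaving out tiles without summits can only raise the share of tiles. For the changes with flanks the cause was not tested. The share of tiles with a recurring summit, pooled over the 8 lengths, was 21.4%, and 22.8% without tiles over 1 Mb from any summit. Genes with a summit near the start in replicate 9 were 3, became 5 with the second estimate and the further start of TXNRD1, and were 2 if scores under 5 were dropped, which also took those in replicate 8 from 6 to 4. Both alternatives were chosen after the data were seen. No paired analysis was possible because there is only 1 group of ChIP libraries. Depth, and whether reads support weak start summits, could not be examined from the lists.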
